A study of Mus musculus with 26 samples.

Results

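The genes described here are 10 genes of insulin and insulin-like growth factor (IGF) signalling, chosen by name from the 55291 gene symbols that both count tables list. They are the ligand gene Igf1, the receptor genes Insr and Igf1r, the substrate genes Irs1 and Irs2, the adaptor genes Grb7 and Grb14 and the binding protein genes Igfbp2, Igfbp3 and Igfbp5. In the CTCF rescue lines all 10 had counts high enough to be tested among 16641 genes, and in the RNA truncation lines 9 had them among 13268 genes. Igf1 was the one removed by the low-count filter in the truncation lines.

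Insulin and the IGFs bind receptor tyrosine kinases on the cell surface, which phosphorylate the IRS proteins and so switch on the PI3K, AKT and mTOR branches that drive growth and nutrient uptake. Secreted IGF binding proteins hold IGFs outside the cell and set how much of them reaches the receptor. Grb10, an imprinted gene, encodes an adaptor that binds the activated receptors and restrains them, and Grb7 and Grb14 are its closest relatives.

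The study asked how RNA contact of the chromatin factor CTCF, and RNAs that CTCF binds, bear on gene expression in mouse E14 embryonic stem cells (ESCs) and in neural progenitor cells (NPCs) made from them over 2 days. In the rescue lines, each 1 clone, endogenous CTCF carried an AID2 degron and was removed by 24 h in 1 µM 5-Ph-IAA while 1 µg/ml doxycycline induced wild-type CTCF (ESC-WT, NPC-WT) or a zinc finger 1 mutant, ΔZF1 (ESC-ΔZF1, NPC-ΔZF1), with 2 libraries in each of the 4 groups. In the truncation lines, Podxl pA and Grb10 pA, a 2A peptide and eGFP cassette ending in an SV40 polyadenylation signal had been knocked in behind the first coding exon of Podxl or Grb10 in homozygous clones, and these were set beside unedited E14 cells (E14 WT) as ESCs and as NPCs, with 3 libraries in each of the 6 groups. All ESCs were grown with leukemia inhibitory factor, CHIR99021 and PD0325901, and ESCs and NPCs alike in N2B27 medium, whose N2 and B27 supplements contain insulin.

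Total counts ran from 6425179 to 28730435 per rescue library and from 1907505 to 8845087 per truncation library. A few libraries stood apart from others of their group. Over all genes tested, the chi-square per degree of freedom between the libraries of a group was 59.2 in NPC-WT against 2.95 to 5.65 in the other rescue groups, and it was 20.02 and 15.7 for ESC Grb10 pA replicate 2 and 25.6 and 12 for ESC E14 WT replicate 1. For the genes described here, where a result turned on 1 of these libraries, it is given with and without that library. Values of single other pathway genes and of markers were not computed with a library left out. The labelled NPC state was checked against marker genes fixed as lists. Naive ESC markers were lower for 8 of 8 in NPC-WT and for 7 of 8 in NPC E14 WT, where 1 was higher, and 4 of the 6 neural progenitor markers tested were higher in NPC-WT and also in NPC E14 WT than in their ESCs. Markers of other cell types moved too. Surface ectoderm markers were higher for 6 of 6 in NPC-WT, with a summed level of 2723 to 4053 CPM against 100.2 to 170 in ESC-WT, while neural progenitor markers summed to 137 to 186 CPM against 48.5 to 54.5. Extraembryonic endoderm markers were higher for 7 of 11 and lower for 1 in NPC-WT (178 to 214 against 31.6 to 74.4 CPM), and higher for 9 of 9 in NPC E14 WT (509 to 668 against 16.1 to 17.5 CPM). Fabp7 and Hes5, a pair of later progenitor genes, were at 0 counts in NPC-WT and NPC Grb10 pA, while Sox1, an early one, had a mean of 19.4 CPM in the 2 NPC-WT libraries (SD 3.69) and of 79.3 CPM in the 3 NPC E14 WT libraries (SD 4.87). In these bulk samples, fewer cells of a type and less RNA per cell cannot be told apart. The study calls the libraries of a group biological replicates, while the labels do not say what was repeated, and p-values measure the spread between these libraries.

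Levels are given as CPM, which are counts divided by the total count of the library after TMM scaling and set to a common total, and a gene was called dysregulated where its adjusted p did not exceed 0.05 and its log2 fold change reached 0.5, up or down (edgeR's quasi-likelihood test, adjusted over all genes tested in a table). "Rose" and "fell" are used only of such genes. The rescue and truncation tables were normalized separately, and levels are not compared between them. Compared per length of annotated exon, as RPKM, which divides CPM by exon length in kilobases, Igfbp2 had the highest level of the 10 genes in every group, with means from 86.1 in ESC-WT to 487 in NPC Grb10 pA. Igf1 had the lowest, with means of at most 0.143 RPKM, and Irs1, at 0.0799 to 0.604 RPKM, was the next lowest in every group but NPC-WT, where Grb14 was.

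**Figure D1:**
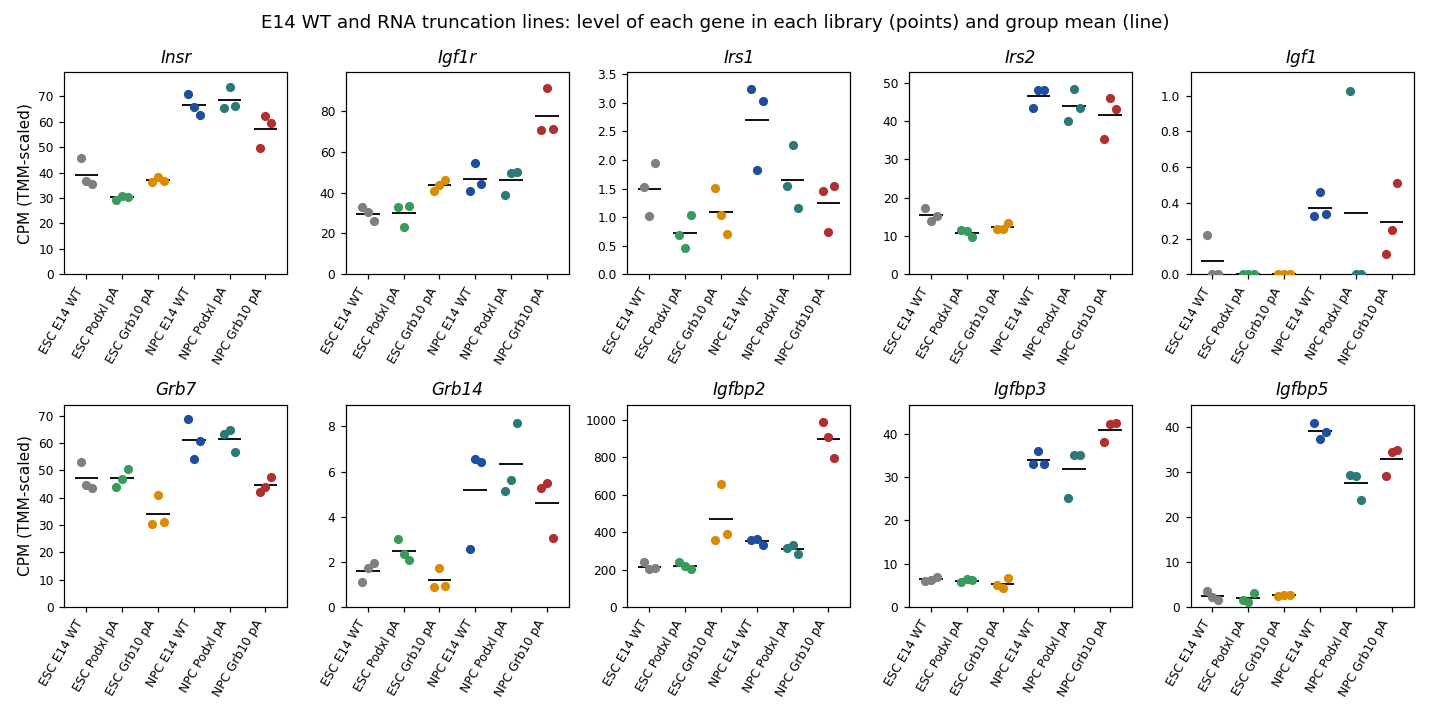
Level of each of the 10 genes in E14 WT, Podxl pA and Grb10 pA cells, in TMM-scaled CPM on a linear axis from 0. Points are libraries (3 a group) and lines are group means. Igfbp2 and Igf1r lie higher in every Grb10 pA library than in every E14 WT library of the same cell type, and Grb7 lies lower.

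The first comparison set Grb10 pA cells, in which the Grb10 RNA was cut short, against E14 WT. Other differences between the edited cells and E14 WT cannot be told apart from the truncation. Igfbp2, which encodes a secreted IGF binding protein, and Igf1r, the receptor for IGFs, were up-regulated in Grb10 pA cells, and each rose as ESC and as NPC. Grb7 had lower levels in all Grb10 pA libraries but stayed under the fold cutoff. The other 6 genes tested were not called in either cell type. Dysregulated genes were thus 2 of 9 in ESCs, beside 9.09% of all genes tested, and 2 of 9 in NPCs, beside 16.5% of all genes tested. Over the 9 genes the log2 fold changes had a median of -0.22 in ESCs and -0.23 in NPCs, beside 0.01 for all genes tested in both. These medians include Insr, whose value is the NPC median, and Irs2. Both lie on chromosome 8, whose genes had medians of -0.49 in ESC Grb10 pA and -0.48 in NPC Grb10 pA. With that shift in the offsets the sign of both genes turned, as given below, and the median over the 9 genes was not computed again. The E14 WT libraries used here as controls also serve the Podxl pA comparisons.

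Grb10 itself (chr11:11930508-12038683, minus strand, GRCm38) checked the label of the line. It was counted at 127, 126 and 118 CPM in ESC E14 WT and at 33.8, 30.4 and 35.3 CPM in ESC Grb10 pA, a log2 fold change of -1.89 ± 0.09 (SE, adjusted p = 2.14e-13). In NPCs, where E14 WT had 769, 802 and 814 CPM, Grb10 pA had 59.4, 52.3 and 52.2 CPM, and Grb10 fell by 3.86 ± 0.09 on the log2 scale (adjusted p = 4.92e-22). All Grb10 pA libraries were below all controls, and the NPC effect minus the ESC effect was -1.96 ± 0.13 on the log2 scale (adjusted p = 1.10e-10). The guide used for the knock-in, shown because it sets where the line was cut, is a designed 20-base sequence, printed without its PAM and with nothing capitalised. It has no match, on either strand, in the 9 annotated Grb10 transcripts searched, and its genome position was not looked up here.
Grb10 pA guide: gcctgtgcacattctcaggt

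Igfbp2 (chr1:72824503-72852474, plus strand) carried the largest change among the 9 genes in both cell types. In ESCs it was at 239, 203 and 206 CPM in E14 WT and at 358, 657 and 391 CPM in Grb10 pA. In NPCs it was at 358, 363 and 334 CPM in E14 WT and at 991, 907 and 799 CPM in Grb10 pA. No Grb10 pA library overlapped its controls, and the ESC value of 657 CPM came from replicate 2, the library that stood apart. The rise was 2.16-fold in ESCs (log2 1.11 ± 0.14, SE, adjusted p = 4.55e-06) and 2.55-fold in NPCs (log2 1.35 ± 0.14, adjusted p = 7.52e-08). Without ESC Grb10 pA replicate 2 the ESC value was 0.78 (adjusted p = 7.14e-07), and with ESC E14 WT replicate 1 left out as well it was 0.86 (adjusted p = 4.87e-07). The rises in NPCs and ESCs differed by 0.24 ± 0.20 on the log2 scale (95% interval -0.17 to 0.65, adjusted p = 0.509), but without ESC Grb10 pA replicate 2 by 0.57 (adjusted p = 0.00459), so that 1 library decides whether a difference between the cell types is called.

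Igf1r (chr7:67952827-68233668, plus strand), the tyrosine kinase that binds IGF1 and IGF2, rose less. Its levels were 32.7, 30.3 and 26.0 CPM in ESC E14 WT and 40.9, 43.5 and 46.2 CPM in ESC Grb10 pA, without overlap. In NPCs they were 40.8, 54.4 and 44.2 CPM in E14 WT and 70.4, 91.0 and 71.3 CPM in Grb10 pA, again without overlap. The rise was 1.45-fold in ESCs (log2 0.53 ± 0.15, adjusted p = 0.0178) and 1.63-fold in NPCs (log2 0.70 ± 0.13, adjusted p = 0.000286). The ESC call lay near both cutoffs and was lost without ESC Grb10 pA replicate 3 (0.48, adjusted p = 0.0660), without ESC E14 WT replicate 2 (0.54, adjusted p = 0.0569) and without ESC E14 WT replicate 3 (0.47, adjusted p = 0.0657). With the libraries that stood apart, ESC Grb10 pA replicate 2 and ESC E14 WT replicate 1, both left out it was kept at 0.58 (adjusted p = 0.0355). The rises in NPCs and ESCs differed by 0.17 ± 0.20 (95% interval -0.25 to 0.59).

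The promoters of both genes are shown because these were the genes that rose in Grb10 pA cells in both cell types. The sequences are the 250 bases before the RefSeq transcription start on GRCm38.p6, read 5′ to 3′ on the strand of the gene, chr7:67952007-67952256 (plus) for Igf1r and chr1:72824230-72824479 (plus) for Igfbp2. Capitals mark matches to GGGCGG, the GC box, searched on both strands.
Igf1r: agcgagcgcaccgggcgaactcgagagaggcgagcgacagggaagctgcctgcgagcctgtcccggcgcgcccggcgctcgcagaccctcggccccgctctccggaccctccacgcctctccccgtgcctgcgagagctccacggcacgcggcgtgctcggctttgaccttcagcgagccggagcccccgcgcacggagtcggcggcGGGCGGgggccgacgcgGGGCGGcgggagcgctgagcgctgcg
Igfbp2: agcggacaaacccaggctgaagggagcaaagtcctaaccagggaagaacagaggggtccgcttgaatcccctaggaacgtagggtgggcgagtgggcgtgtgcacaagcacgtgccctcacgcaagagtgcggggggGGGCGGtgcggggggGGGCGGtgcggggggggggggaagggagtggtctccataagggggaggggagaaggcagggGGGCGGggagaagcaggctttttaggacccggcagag
The Igf1r window holds 2 GC boxes and the Igfbp2 window 3, and 32.7% of 32851 promoter windows of the same length hold at least 1. Igfbp2 has another RefSeq start farther downstream, whose window holds none. RefSeq windows were found for 8 of the 10 genes. Those of Grb14 (5 matches), Irs1 (2) and Irs2 (1), which did not rise in Grb10 pA cells, also hold GC boxes, and those of Igf1, Igfbp3 and Igfbp5 hold 0. None of the windows of these 8 genes holds TATAAA (12.4% of all windows), GTAAACA, the core bound by FOXO factors (3.17%), or AGGGGGC, a part of the CTCF core motif (9.43%), on either strand. A match or its absence describes these letters only.

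Grb7 (chr11:98446394-98455373, plus strand) encodes an adaptor of the Grb10 family that binds activated receptor tyrosine kinases. It was at 53.0, 44.7 and 43.5 CPM in ESC E14 WT and at 30.3, 41.1 and 31.3 CPM in ESC Grb10 pA. In NPCs it was at 68.6, 54.2 and 60.7 CPM in E14 WT and at 42.1, 43.9 and 47.5 CPM in Grb10 pA. Every Grb10 pA library was below every control in each cell type. The log2 fold change was -0.49 ± 0.13 in ESCs (adjusted p = 0.00862) and -0.45 ± 0.11 in NPCs (adjusted p = 0.00462), just under the fold cutoff, and it was -0.63 in ESCs without Grb10 pA replicate 2 (adjusted p = 0.000798) and -0.39 without E14 WT replicate 1 (adjusted p = 0.0678). Grb14 (chr2:64912476-65024987, minus strand), the third adaptor of the family, was sparse, at 1.09, 1.71 and 1.94 CPM in ESC E14 WT and 0.866, 1.73 and 0.948 CPM in ESC Grb10 pA. Its NPC values were 2.59, 6.57 and 6.40 CPM in E14 WT and 5.29, 5.48 and 3.08 CPM in Grb10 pA, and the groups overlapped. The 95% interval of its log2 fold change was -1.58 to 0.66 in ESCs and -0.85 to 0.38 in NPCs, which holds both 0 and the Grb7 values. Set side by side per exon length in NPC E14 WT, Grb10 was at 87.5 ± 2.58 RPKM, Grb7 at 18.2 ± 2.14 and Grb14 at 0.722 ± 0.313 (SD, n = 3). In NPC Grb10 pA the values were 6.01 ± 0.455, 13.2 ± 0.827 and 0.643 ± 0.186 RPKM, with the shortened Grb10 RNA divided by the full exon length.

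Insr (chr8:3122061-3279617, minus strand), the insulin receptor gene, and Irs2 (chr8:10984681-11008458, minus strand), a docking protein that carries the receptor signal to PI3K, were not called in Grb10 pA cells. Insr was at 45.6, 36.6 and 35.3 CPM in ESC E14 WT and 36.1, 38.3 and 36.7 CPM in ESC Grb10 pA, and at 70.9, 65.7 and 62.7 CPM and 49.8, 62.1 and 59.7 CPM in the NPCs of the same lines. Its log2 fold change was -0.09 ± 0.12 in ESCs (adjusted p = 0.656) and -0.23 ± 0.10 in NPCs (adjusted p = 0.102). Irs2 was at 17.2, 13.9 and 15.1 CPM in ESC E14 WT and 11.9, 11.7 and 13.3 CPM in ESC Grb10 pA, and at 43.4, 48.1 and 48.2 CPM and 35.2, 46.1 and 43.1 CPM in NPCs. Its log2 fold change was -0.32 ± 0.16 (adjusted p = 0.207) and -0.19 ± 0.12 (adjusted p = 0.245). Both genes lie on chromosome 8, whose 731 tested genes had a median log2 fold change of -0.49 in ESC Grb10 pA and -0.48 in NPC Grb10 pA, while no other autosome had a median outside -0.02 to 0.07 in ESCs or -0.02 to 0.06 in NPCs. Ctcf, on the same chromosome, fell by 0.64 ± 0.07 in ESCs (adjusted p = 1.03e-06) and was -0.44 ± 0.07 in NPCs (adjusted p = 5.01e-05). With the chromosome 8 median taken into the offsets, Insr stood at 0.39 (adjusted p = 0.0287) and 0.25 (adjusted p = 0.0709) and Irs2 at 0.17 (adjusted p = 0.557) and 0.29 (adjusted p = 0.0653), so that the sign of both genes turned and neither passed both cutoffs.

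The remaining genes gave no call in Grb10 pA cells. Irs1 (chr1:82233101-82291416, minus strand), the other main receptor substrate, was at 1.53, 1.03 and 1.94 CPM in ESC E14 WT and 1.51, 1.04 and 0.711 CPM in ESC Grb10 pA. In NPCs it was at 3.24, 1.83 and 3.03 CPM in E14 WT and at 1.46, 0.748 and 1.54 CPM in Grb10 pA, without overlap (log2 -0.91 ± 0.40, adjusted p = 0.0912). Exons of Irs1 overlap the antisense gene Gm9747 over 2822 bases and those of Irs2 overlap 9530052E02Rik over 162 bases, and without strand in the counting such reads cannot be told apart. Igfbp3 (chr11:7206086-7213923, minus strand) encodes another secreted IGF carrier and had 33, 36.1 and 33 CPM in NPC E14 WT against 38.1, 42.1 and 42.6 CPM in NPC Grb10 pA (log2 0.25 ± 0.13, adjusted p = 0.140). Igfbp5 (chr1:72857932-72874884, minus strand), a binding protein that also binds matrix, had 40.8, 37.3 and 38.8 CPM and 29.0, 34.4 and 34.9 CPM in the same groups (log2 -0.25 ± 0.14, adjusted p = 0.176). In ESCs both were at under 7 CPM, with overlapping groups and log2 fold changes of -0.22 ± 0.23 and 0.01 ± 0.35. Between the cell types, 0 of the 9 genes had a Grb10 pA effect that differed, beside 5.90% of all genes tested (edgeR, 0 at an unadjusted p under 0.05, and 0 with DESeq2).

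**Figure D2:**
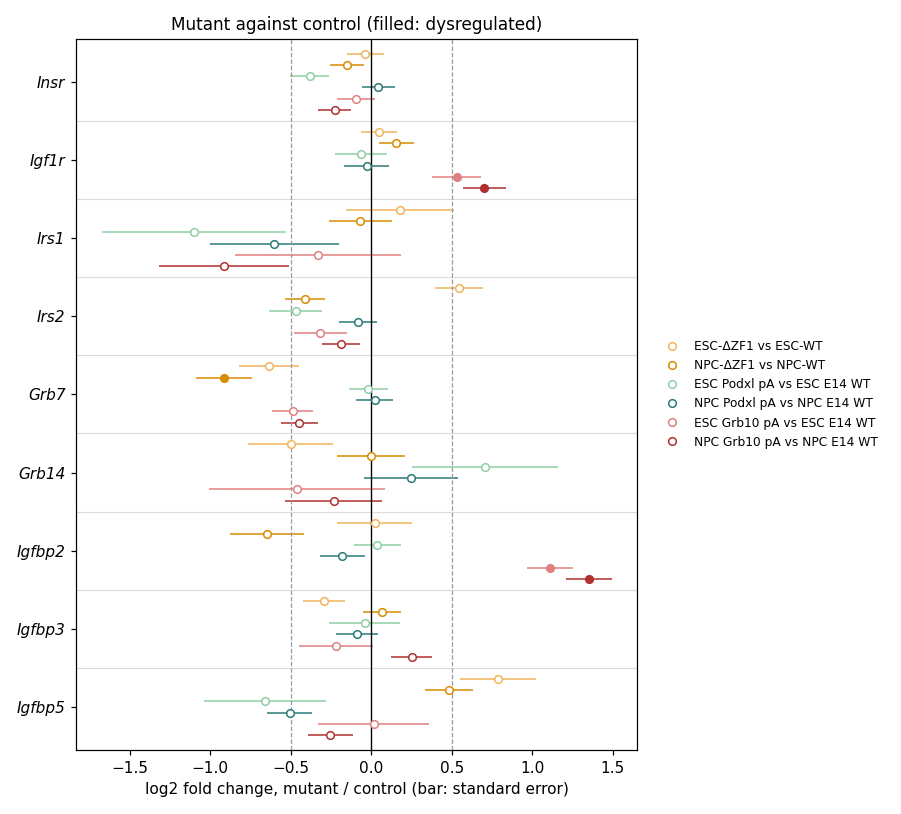
Log2 fold change of 9 of the genes in each mutant line against its own control (x axis, log2 scale), with bars of 1 standard error. Filled points are dysregulated and dashed lines mark a log2 fold change of 0.5 in either direction. The filled points are Igf1r and Igfbp2 in Grb10 pA ESCs and NPCs and Grb7 in NPC-ΔZF1.

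Of 57 other genes of the pathway, 49 were tested in the truncation lines. In ESC Grb10 pA, 3 rose and 3 fell (Grb10 among them), and in NPC Grb10 pA, 2 rose and 4 fell, which is 12.2% called in each, beside 9.09% and 16.5% of all genes. The largest changes besides Grb10 in ESCs were those of Htra1, a secreted protease that cleaves IGF binding proteins (31.1 ± 5.49 against 12.8 ± 1.87 CPM, SD, n = 3, log2 1.28 ± 0.18, SE, adjusted p = 1.50e-05), and Socs3, a suppressor of cytokine and insulin signalling (115 ± 16.5 against 63.4 ± 6.96 CPM, log2 0.84 ± 0.13, adjusted p = 5.09e-05). In NPCs the largest were sought among called genes with a mean not under 50 normalized counts and groups that do not overlap. Besides Grb10 they were those of Pik3r2, a regulatory subunit of PI3K on chromosome 8 (50.9 ± 5.52 against 89.4 ± 5.05 CPM, log2 -0.81 ± 0.10, adjusted p = 6.21e-07), and again Htra1 (35.0 ± 2.74 against 22.2 ± 5.38 CPM, log2 0.65 ± 0.16, adjusted p = 0.00309). The others called in ESCs were Igf2bp2 (log2 0.58) and, on chromosome 8, Gab1 (-0.63) and Eif4ebp1 (-0.80), and in NPCs Foxo1 (0.59), Ptpn1 (-0.53) and Igfbp4 (-0.67). With the chromosome 8 median in the offsets, the calls of Pik3r2 (-0.33, adjusted p = 0.0129), Gab1 (-0.15, adjusted p = 0.315) and Eif4ebp1 (-0.31, adjusted p = 0.0630) ended. Beside these results, 3 of 6 neural progenitor markers and 2 of 3 neuron markers tested were lower in NPC Grb10 pA than in NPC E14 WT, with summed levels of 163 to 190 against 204 to 226 CPM and 58.1 to 60.2 against 128 to 136 CPM, while 3 of 8 naive ESC markers were higher and 1 lower (819 to 881 against 659 to 770 CPM). Hes5 and Fabp7 were at 0 counts in NPC Grb10 pA. The part of these shifts in the results above was not tested.

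Podxl pA cells, cut short in a gene for a membrane sialomucin, served as the other truncation line. Podxl fell by 2.73 ± 0.24 on the log2 scale in ESCs (adjusted p = 2.22e-07) and by 3.45 ± 0.15 in NPCs (adjusted p = 9.72e-15). None of the 9 genes was dysregulated, 0 in ESCs beside 0.339% of all genes tested and 0 in NPCs beside 0.550% (edgeR, 2 and 1 at an unadjusted p under 0.05, and 0 and 0 with DESeq2). Their log2 fold changes had medians of -0.06 in ESCs and -0.08 in NPCs, beside 0.00 for all genes in both. Insr was at 29.4, 30.9 and 30.4 CPM in ESC Podxl pA, below the 3 controls, and Irs2 at 11.6, 11.2 and 9.79 CPM, also below them. Their log2 fold changes of -0.38 ± 0.12 (95% interval -0.63 to -0.13, adjusted p = 0.248) and -0.47 ± 0.17 (95% interval -0.81 to -0.13, adjusted p = 0.330) did not pass adjustment. Igfbp5 was at 29.3, 29.2 and 23.8 CPM in NPC Podxl pA, below the NPC controls, with a log2 fold change of -0.51 ± 0.14 (adjusted p = 0.121) that was called when only these 6 libraries were fitted (-0.51, adjusted p = 0.0168).

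For the genes that rose in Grb10 pA, the Podxl pA values were close to the shared controls. Igfbp2 was at 239, 220 and 205 CPM in ESC Podxl pA and 317, 334 and 282 CPM in NPC Podxl pA, with log2 fold changes of 0.04 ± 0.15 (95% interval -0.26 to 0.34) and -0.18 ± 0.14 (95% interval -0.47 to 0.11). Igf1r was at 32.9, 23.1 and 33.5 CPM and at 38.8, 49.5 and 49.8 CPM, with log2 fold changes of -0.06 ± 0.16 (95% interval -0.39 to 0.27) and -0.03 ± 0.14 (95% interval -0.32 to 0.26). Grb7 was at 44.0, 46.9 and 50.5 CPM and at 63.2, 64.7 and 56.7 CPM, within or beside the controls (log2 -0.02 ± 0.12 and 0.02 ± 0.11). Grb10 was at 130, 121 and 144 CPM in ESC Podxl pA, and at 586, 591 and 586 CPM in NPC Podxl pA its level was below the controls (log2 -0.44 ± 0.07, adjusted p = 0.00248), under the fold cutoff. No gene of the 9 had a Podxl pA effect that differed between NPCs and ESCs, beside 0.0980% of all genes (edgeR, 1 at an unadjusted p under 0.05, Insr, and 0 with DESeq2). Of the other pathway genes, 0 of 49 were dysregulated in ESCs and 0 in NPCs (edgeR, 2 and 11 at an unadjusted p under 0.05, and 0 and 0 with DESeq2). Of 9 extraembryonic endoderm markers tested, 4 were higher in NPC Podxl pA (summed level 1092 to 1152 against 509 to 668 CPM), and their part in these values was not tested.

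The next comparison followed the genes from ESC to NPC in each line. It drew on the same libraries as the comparisons between lines. Most of the 10 genes had higher levels in NPCs, and none was lower. In the rescue lines, 9 of 10 rose from ESC-WT to NPC-WT, beside 41.9% of all genes called and 22.0% called higher, and 10 of 10 rose from ESC-ΔZF1 to NPC-ΔZF1, beside 37.3% called and 20.4% called higher. In E14 WT 7 of 9 rose, beside 32.8% called and 16.5% called higher. In Podxl pA 7 of 9 rose, beside 31.8% and 17.1%, and in Grb10 pA 7 of 9 rose, beside 34.6% and 17.2%. Medians of the log2 fold change over these genes were 1.69 and 1.51 in the WT and ΔZF1 rescue lines and 0.84, 1.34 and 0.95 in E14 WT, Podxl pA and Grb10 pA, while that of all genes tested lay between -0.02 and 0.02. Markers of extraembryonic endoderm moved with these results, higher for 11 of 11 in ΔZF1, for 7 of 11 (1 lower) in the WT rescue and for 9 of 9 in each of E14 WT, Podxl pA and Grb10 pA. Surface ectoderm markers were higher for 6 of 6 in the WT rescue and 5 of 6 in ΔZF1. In E14 WT, Podxl pA and Grb10 pA they went both ways, with 1, 2 and 2 of 4 higher and 1, 1 and 2 of 4 lower. The part of these markers in the rises of the 10 genes was not tested.

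Igfbp5 and Irs2 were among the genes with the larger rises, and in E14 WT, Podxl pA and Grb10 pA the log2 fold change of Igfbp3 (2.43, 2.38 and 2.90) was above that of Irs2 (1.60, 1.99 and 1.73). Grb14 was above Irs2 as well in E14 WT (1.80) and Grb10 pA (2.03), but not in Podxl pA (1.34). Irs2 went from 18 and 14.3 CPM in ESC-WT to 164 and 185 CPM in NPC-WT, a 10.9-fold rise (log2 3.45 ± 0.15, adjusted p = 4.28e-07). In E14 WT it went from 13.9 to 17.2 CPM in ESCs to 43.4 to 48.2 CPM in NPCs, a 3.04-fold rise (log2 1.60 ± 0.14, adjusted p = 1.97e-10). Igfbp5 was at 2.45 and 1.76 CPM in ESC-WT and 16.1 and 16.5 CPM in NPC-WT (log2 3.02 ± 0.21, adjusted p = 2.61e-06). It was at 3.49, 2.23 and 1.55 CPM in ESC E14 WT and rose by 3.92 ± 0.21 on the log2 scale to the NPC values given above (adjusted p = 1.78e-14). In every line all NPC libraries lay above all ESC libraries for both genes. The rescue and E14 rises were not compared with each other by a test.

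Both receptor genes rose moderately in all 5 lines. Insr was at 32.1 and 30.2 CPM in ESC-WT and 65.0 and 66.6 CPM in NPC-WT (log2 1.08 ± 0.11, adjusted p = 3.82e-05), and its log2 fold changes in the other lines were 0.97, 0.75, 1.18 and 0.62 in ΔZF1, E14 WT, Podxl pA and Grb10 pA. Igf1r was at 38.1 and 39.3 CPM in ESC-WT and 64.7 and 70.6 CPM in NPC-WT (log2 0.80 ± 0.11, adjusted p = 0.000247), and it rose by 0.91, 0.65, 0.69 and 0.82 in the other lines in the same order. The Podxl pA call of Igf1r was lost without ESC Podxl pA replicate 2 (0.49, adjusted p = 0.0191). Of the binding proteins, Igfbp3 rose by 1.10 ± 0.13 in the WT rescue line, from 19.9 and 17.6 to 39.2 and 40.8 CPM (adjusted p = 8.08e-05), and by 2.43 ± 0.17 in E14 WT, from 6.11, 6.16 and 6.99 CPM (adjusted p = 3.33e-12). Igfbp2 rose by 2.22 ± 0.24 in the WT rescue line (161 and 157 to 507 and 974 CPM, adjusted p = 5.45e-05), by 1.68 to 2.63 when 1 library was left out at a time, and by 0.70 ± 0.14 in E14 WT (adjusted p = 0.000226). In Podxl pA it was at 0.49 ± 0.14 (adjusted p = 0.00699), just under the fold cutoff, and passed it under 6 of the settings tried.

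The adaptors and Irs1 were less even across the lines. Grb7 rose from 35.3 and 34.6 CPM in ESC-WT to 62.6 and 94.7 CPM in NPC-WT (log2 1.17 ± 0.18, adjusted p = 0.000518, 0.86 to 1.45 when 1 library was left out), but its log2 fold changes of 0.36, 0.40 and 0.40 in E14 WT, Podxl pA and Grb10 pA were under the fold cutoff. Grb14 was at 2.75 and 3.52 CPM in ESC-WT and 4.32 and 4.04 CPM in NPC-WT (log2 0.38 ± 0.24, adjusted p = 0.224), and rose by 1.80 ± 0.39 in E14 WT (adjusted p = 0.000443). Its ΔZF1 call (0.88 ± 0.23, adjusted p = 0.0123) was lost with DESeq2 (adjusted p = 0.0744) and without ESC-ΔZF1 replicate 1 (0.69, adjusted p = 0.122), NPC-ΔZF1 replicate 1 (0.85, adjusted p = 0.0713) or NPC-ΔZF1 replicate 2 (0.91, adjusted p = 0.0547). Irs1 rose from 0.917 and 1.17 to 5.64 and 5.41 CPM in the WT rescue line (log2 2.34 ± 0.27, adjusted p = 8.41e-05). In the truncation lines Irs1 was not called in E14 WT (0.84 ± 0.43, adjusted p = 0.114) or Grb10 pA (0.25 ± 0.48, adjusted p = 0.696). These libraries were shallower, and the part of depth was not tested. Its call in Podxl pA (1.34 ± 0.54, adjusted p = 0.0429) was lost without ESC Podxl pA replicate 1 (1.40, adjusted p = 0.0876) or replicate 2 (1.01, adjusted p = 0.232) and without NPC Podxl pA replicate 1 (1.37, adjusted p = 0.0637) or replicate 2 (1.04, adjusted p = 0.187).

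**Figure D3:**
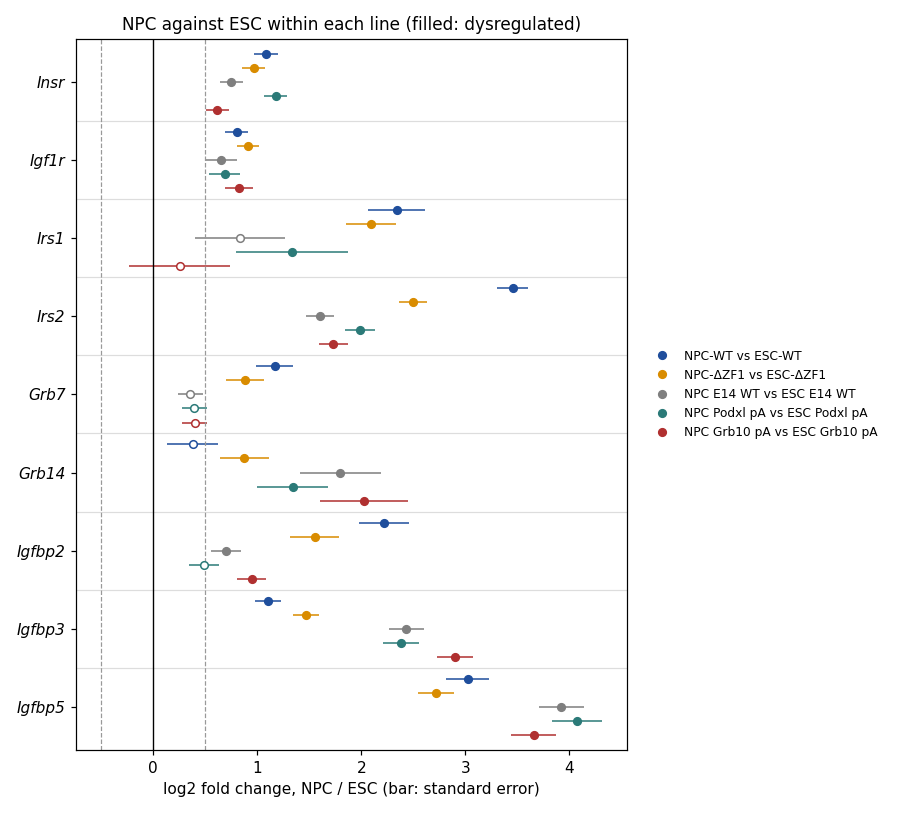
Log2 fold change from ESC to NPC of 9 of the genes within each of the 5 lines (x axis, log2 scale), with bars of 1 standard error. Filled points are dysregulated and dashed lines mark a log2 fold change of 0.5 in either direction. All points lie to the right of 0. The open points are Irs1 in E14 WT and Grb10 pA, Grb7 in the 3 truncation-table lines, Grb14 in the WT rescue and Igfbp2 in Podxl pA.

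Igf1 (chr10:87858265-87937042, plus strand), the one ligand gene of the 10, was barely detected in ESCs. It had 1 and 0 counts in ESC-WT, 0 and 1 in ESC-ΔZF1, 22 and 6 in NPC-WT and 53 and 26 in NPC-ΔZF1. Ratios were taken from counts summed over the libraries of a group, divided by their summed TMM-scaled totals. The ratio of NPC-WT to ESC-WT was 17.4 (95% interval from counting alone 2.87 to 711) and that of NPC-ΔZF1 to ESC-ΔZF1 was 40.4 (7.05 to 1616). Both rises were called (adjusted p = 0.0195 and 0.00200), the first not without ESC-WT replicate 2 (adjusted p = 0.237). NPC-ΔZF1 against NPC-WT had a ratio of 1.79 (1.15 to 2.86 from counting alone), which was not called against the spread between libraries (log2 0.87 ± 0.52, adjusted p = 0.259, 1.44 without NPC-WT replicate 1 and 0.58 without replicate 2). In the truncation lines, Igf1 had 1 count over ESC E14 WT and 0 counts over ESC Podxl pA and ESC Grb10 pA, which allows up to 0.237 and 0.256 CPM at 3 counts over each group. NPC E14 WT held 5 counts, NPC Grb10 pA 5 and NPC Podxl pA 4, the last all in 1 library, and a difference between these groups was not detectable at this depth.

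Of the 57 other pathway genes, 50 were tested in the rescue lines, and 17 rose and 9 fell from ESC-WT to NPC-WT (52%, beside 41.9% of all genes called). By the rule for naming, the largest change was that of Igf2, the second IGF ligand gene and imprinted (322 against 7.34 CPM, log2 5.57 ± 0.28, adjusted p = 6.61e-07), followed by Socs3 (20.7 against 199 CPM, log2 -3.28 ± 0.16, adjusted p = 6.41e-07) and Igfbp4, a secreted IGF binding protein (51.7 against 7.62 CPM, log2 2.80 ± 0.19, adjusted p = 2.84e-06). In E14 WT, 14 of 49 rose and 7 fell (42.9%, beside 32.8% of all genes), and among those with a mean not under 50 normalized counts the largest changes were those of Socs3 (7.15 against 63.4 CPM, log2 -3.07 ± 0.19, adjusted p = 1.82e-13), Grb10 (795 against 123 CPM, log2 2.68 ± 0.08, adjusted p = 8.86e-20) and Foxo4, a transcription factor held out of the nucleus by AKT (146 against 37.6 CPM, log2 1.97 ± 0.11, adjusted p = 1.59e-14). Igf2, under that limit, rose there too, from 0 counts over the 3 ESC E14 WT libraries to 11.04 ± 3.60 CPM (SD, n = 3) in NPC E14 WT. From ESC-ΔZF1 to NPC-ΔZF1 17 rose and 9 fell (52%, beside 37.3% of all genes), from ESC to NPC Podxl pA 12 rose and 5 fell (34.7%, beside 31.8%), and in Grb10 pA 12 rose and 8 fell (40.8%, beside 34.6%). By the same rule, genes named were Igf2 (log2 4.19), Socs3 (-3.96) and Foxo6 (-2.59) in ΔZF1, Socs3 (-3.20), Grb10 (2.17) and Foxo4 (1.80) in Podxl pA, and Socs3 (-3.59) and Foxo4 (1.5) in Grb10 pA.

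The last comparison set the ΔZF1 rescue against the WT rescue. Ctcf reads, in which the endogenous gene and the transgene cannot be told apart, were higher in ΔZF1 by 0.57 ± 0.09 in ESCs (adjusted p = 0.0161) and 0.78 ± 0.09 in NPCs (adjusted p = 0.000666) on the log2 scale. None of the 10 genes was dysregulated in ESC-ΔZF1, beside 3.61% of all genes tested (edgeR, 3 at an unadjusted p under 0.05, and 1 with DESeq2, Irs2). In NPC-ΔZF1, 1 of 10, Grb7, fell, beside 17.6% of all genes tested. The ΔZF1 effect differed between NPCs and ESCs for 1 of 10, Irs2, beside 2.70% of all genes tested. Medians of the log2 fold change were -0.01 in ESCs and -0.04 in NPCs for the 10 genes, and -0.01 and 0.00 for all genes.

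Grb7 was at 35.3 and 34.6 CPM in ESC-WT and 21.6 and 23.4 CPM in ESC-ΔZF1, and at 62.6 and 94.7 CPM in NPC-WT and 39.9 and 43.1 CPM in NPC-ΔZF1. Every ΔZF1 library was below every WT library of its cell type. The log2 fold change was -0.63 ± 0.19 in ESCs (adjusted p = 0.0954) and -0.92 ± 0.17 in NPCs (adjusted p = 0.00574). The NPC value was -1.19 without NPC-WT replicate 1 and -0.61 without NPC-WT replicate 2, and the call was lost without NPC-ΔZF1 replicate 1 (-0.87, adjusted p = 0.0675). Grb7 lies on chromosome 11, whose 1326 tested genes had a median log2 fold change of -0.46 in ESC-ΔZF1 and -0.56 in NPC-ΔZF1, beside -0.01 to 0.05 and -0.04 to 0.17 over the other autosomes. With that median taken into the offsets, Grb7 stood at -0.18 in ESCs (adjusted p = 0.746) and -0.35 in NPCs (adjusted p = 0.185), and its call ended. The NPC effect minus the ESC effect on Grb7 was -0.28 ± 0.25 (adjusted p = 0.584), and it stood at -0.57 without NPC-WT replicate 1 and at 0.00 without replicate 2. Igfbp3, also on chromosome 11, was at 39.2 and 40.8 CPM in NPC-WT and 42.7 and 41.1 CPM in NPC-ΔZF1 (log2 0.07 ± 0.12), and with that median in the offsets at 0.63 (adjusted p = 0.00708). Grb10, on the same chromosome, was at 265 and 259 CPM in NPC-WT and 469 and 473 CPM in NPC-ΔZF1 and rose by 0.85 ± 0.09 (adjusted p = 0.000439).

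Irs2 lay on opposite sides of its controls in the cell types. It was at 18 and 14.3 CPM in ESC-WT and 21.5 and 24.9 CPM in ESC-ΔZF1, with both mutant libraries above both controls (log2 0.55 ± 0.15, adjusted p = 0.0716). In NPCs it was at 164 and 185 CPM in WT and 132 and 130 CPM in ΔZF1, both mutant libraries below both controls (log2 -0.41 ± 0.13, adjusted p = 0.0428), under the fold cutoff. That value was -0.50 without NPC-WT replicate 1 and -0.34 without replicate 2, each with 1 control library left. The NPC effect minus the ESC effect was -0.96 ± 0.19 (95% interval -1.39 to -0.53, adjusted p = 0.0311). The direction held when each of the 8 libraries was left out, with values of -0.80 to -1.13, but the call was lost without any 1 of the ESC-WT, ESC-ΔZF1 or NPC-ΔZF1 libraries, with adjusted p from 0.0642 without ESC-WT replicate 1 to 0.205 without ESC-WT replicate 2.

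Igfbp2 in NPCs turned on the control libraries. It was at 507 and 974 CPM in NPC-WT replicates 1 and 2, and at 471 and 475 CPM in NPC-ΔZF1 (log2 -0.65 ± 0.23, adjusted p = 0.0742). Without NPC-WT replicate 1 the value was -1.05 and without replicate 2 it was -0.12, each with 1 control library left. In ESCs it was at 161 and 157 CPM in WT and 168 and 154 CPM in ΔZF1 (95% interval of the log2 fold change -0.50 to 0.54). The NPC effect minus the ESC effect was -0.67 ± 0.33 (adjusted p = 0.315), and it was -1.07 without NPC-WT replicate 1 and -0.16 without replicate 2. Igfbp5 had higher levels in ΔZF1, at 2.45 and 1.76 against 3.52 and 3.38 CPM in ESCs (log2 0.79 ± 0.24, adjusted p = 0.102) and 16.1 and 16.5 against 23.8 and 21.6 CPM in NPCs (log2 0.48 ± 0.15, adjusted p = 0.0439), and passed both cutoffs in neither.

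Receptor levels were close between the rescues. Insr was at 29.5 and 31.1 CPM in ESC-ΔZF1 and 60.6 and 57.8 CPM in NPC-ΔZF1, with 95% intervals of the log2 fold change of -0.29 to 0.22 and -0.39 to 0.08. Igf1r was at 40.0 and 40.1 CPM in ESC-ΔZF1 and 72.7 and 78 CPM in NPC-ΔZF1, with intervals of -0.20 to 0.30 and -0.08 to 0.39. Irs1 had 1.32 and 1.15 CPM in ESC-ΔZF1 and 4.90 and 5.66 CPM in NPC-ΔZF1 (log2 0.18 ± 0.34 and -0.07 ± 0.20), and Grb14 had 1.98 and 2.57 CPM and 4.26 and 4.12 CPM (log2 -0.50 ± 0.26 and 0.00 ± 0.21).

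**Figure D4:**
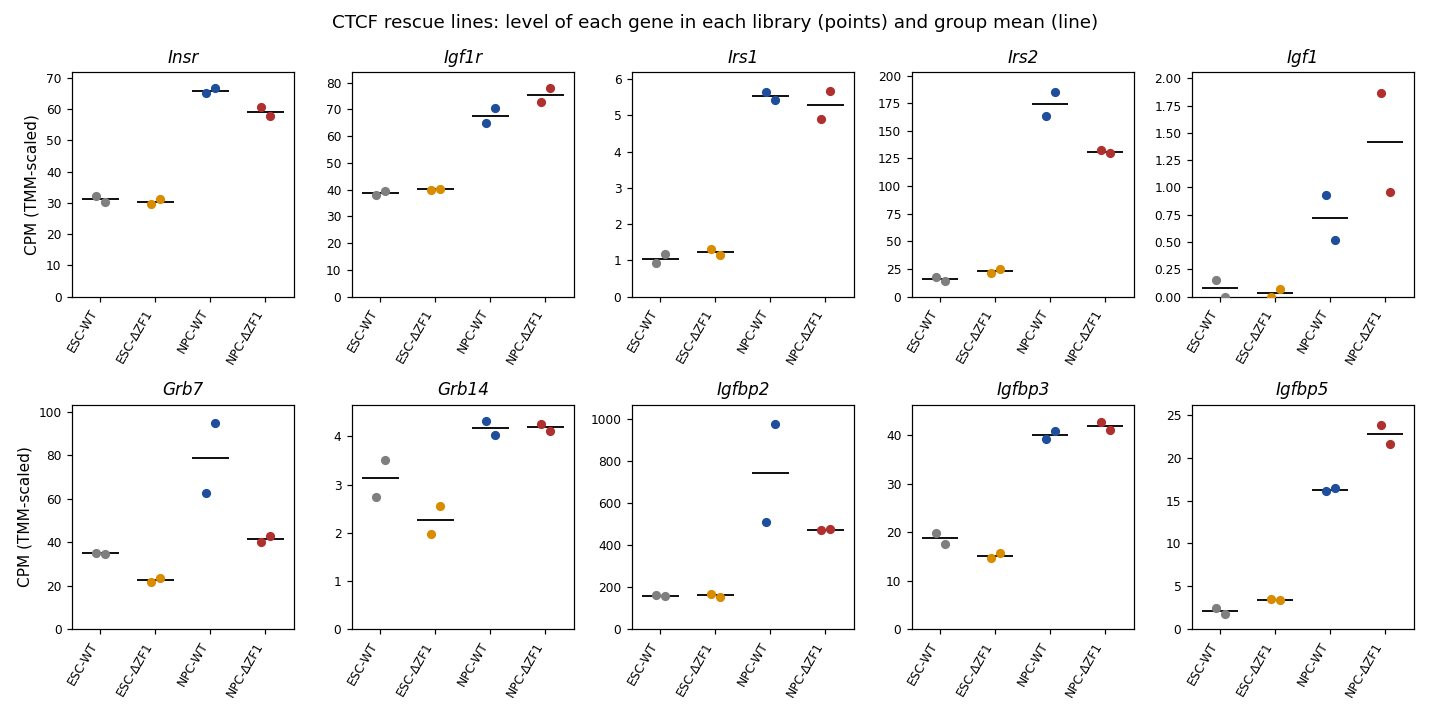
Level of each of the 10 genes in the CTCF rescue lines, in TMM-scaled CPM on a linear axis from 0. Points are libraries (2 a group) and lines are group means. The NPC-WT libraries lie far apart for Grb7 (62.6 and 94.7 CPM) and Igfbp2 (507 and 974 CPM), and Irs2 is higher in ESC-ΔZF1 and lower in NPC-ΔZF1 than in the WT rescue.

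Of the other pathway genes, 2 rose and 1 fell in ESC-ΔZF1 (6% of 50, beside 3.61% of all genes), and 8 rose and 9 fell in NPC-ΔZF1 (34% of 50, beside 17.6% of all genes). By the rule for naming, the ESC genes were Igf2bp3, which encodes a protein that binds Igf2 RNA (131 against 74.5 CPM, log2 0.82 ± 0.12, adjusted p = 0.0129), and Grb2, the adaptor that links receptors to RAS, on chromosome 11 (102 against 156 CPM, log2 -0.62 ± 0.10, adjusted p = 0.0180), whose call ended with the chromosome 11 median in the offsets (-0.16, adjusted p = 0.542). The other was Igfals, which encodes a serum partner of IGF binding proteins (3.94 against 1.30 CPM, log2 1.58 ± 0.31, adjusted p = 0.0256). In NPCs they were Igfbp6, a binding protein that prefers IGF2 (1.38 against 4.49 CPM, log2 -1.66 ± 0.36, adjusted p = 0.0111), Stc2, on chromosome 11, an inhibitor of the proteases that cleave IGF binding proteins (6.16 against 2.33 CPM, log2 1.48 ± 0.28, adjusted p = 0.00545), and Enpp1, a membrane enzyme that restrains the insulin receptor (6.43 against 2.43 CPM, log2 1.42 ± 0.22, adjusted p = 0.00206). The ΔZF1 effect differed between the cell types for 2 of the 50 (4%, beside 2.70% of all genes), Grb10 (NPC effect minus ESC effect 0.80) and Enpp1 (1.99). With only the groups compared in the fit, 6 pathway genes were called in ESC-ΔZF1 and 11 in NPC-ΔZF1. The numbers of pathway genes called in these 3 comparisons also moved when 1 library was left out, as those of all genes did, given below. With the chromosome 11 median in the offsets Stc2 stood at 2.04 (adjusted p = 0.00149). Beside these, all 11 extraembryonic endoderm markers tested were higher in NPC-ΔZF1 (summed level 1796 to 1879 against 178 to 214 CPM, with Apoa1 at 0 in NPC-WT), and of 6 surface ectoderm markers 3 were lower and 1 higher (1078 to 1135 against 2723 to 4053 CPM). Their part in the values of the 10 genes was not tested.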

How the data were processed

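RNA-seq counts of 26 libraries were analysed, 8 of the rescue lines and 18 of the truncation lines. The authors aligned reads to mm10 with STAR and made the deposited values, whole-number counts per gene, with featureCounts through the sns pipeline. Versions are not given in the sources used here, and strand was not used in the counting. Another 3 columns matched no sample and were not used.

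Each table was fitted with edgeR 4.0.16 (R 4.3.3, limma 3.58.1) on the counts, with TMM, edgeR's filter on low counts, 1 mean for each group and the quasi-likelihood F test. P-values were adjusted (Benjamini-Hochberg) over all genes tested, and intervals cover 95% with the degrees of freedom of the fit. Fits were checked on simulated counts. DESeq2 1.42.0, RLE, no filter, only the groups compared, a replicate block, chromosome medians in the offsets and each library left out were alternatives.

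The genes and lists were chosen with earlier results of these data known. Named were the 10 genes, Grb10, Podxl and Ctcf, and of 57 other pathway genes the 3 called genes with the largest change per comparison, a mean not under 50 normalized counts and groups that do not overlap. Other called pathway genes are named where a count was 5 or fewer, after their values were seen, and 1 pathway gene is not reported here. Fabp7, Hes5, Sox1 and Apoa1 were named from the marker lists after their values were seen. Gene positions are from GENCODE M21 (GRCm38) and promoters from RefSeq (GRCm38.p6). The annotation used in the counting is not given in the sources used here. Depth limits low genes, and the intervals and limits of Igf1 cover counting error only.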

Additional observations from a re-analysis of the deposited data

Results flagged for a closer look

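The ΔZF1 effect on Irs2 differed between the cell types by a test of the difference itself, with -0.96 on the log2 scale (edgeR, adjusted p = 0.0311) for the NPC effect minus the ESC effect. Both ESC-ΔZF1 libraries lay above both ESC-WT libraries and both NPC-ΔZF1 libraries below both NPC-WT libraries. Neither the ESC value (log2 0.55, adjusted p = 0.0716) nor the NPC value (-0.41, adjusted p = 0.0428) passed both cutoffs. The call of the difference was lost with the replicate block. It was also lost without any single library of ESC-WT, ESC-ΔZF1 or NPC-ΔZF1, as given above. No group held 4 or more samples, so that the gap of a single library to the others was not tested gene by gene, and the libraries named as standing apart were found from counts over all genes.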

How the results depend on the processing

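Limits are the 2 or 3 libraries a group and the low counts of Igf1, Irs1 and Grb14. The number of dysregulated genes among the 10 moved as follows. In ESC-ΔZF1 it went from 0 to 1 with DESeq2 (Irs2), 2 without the filter and 2 with only the groups compared (Irs2 and Grb7 in both). In NPC-ΔZF1 it went from 1 to 2 with DESeq2, 2 without the filter (Grb7 and Igfbp2 in both) and 0 with only the groups compared, and ran from 0 (without NPC-ΔZF1 replicate 1) to 3 (without NPC-WT replicate 1) when 1 library was left out. For the difference of the ΔZF1 effects it went from 1 to 2 without the filter and 0 with the replicate block, and ran from 0 to 3 over the libraries left out (3 without NPC-WT replicate 1). In ESC Grb10 pA it ran from 1 without ESC Grb10 pA replicate 3 to 3 without ESC Grb10 pA replicate 2, against 2, and was 3 without the filter and 3 with ESC Grb10 pA replicate 2 and ESC E14 WT replicate 1 both left out (Grb7 added). In NPC Grb10 pA it was 3 without NPC E14 WT replicate 2 (Grb7 added), against 2. From ESC to NPC it was 8 or 9 in the WT rescue, 9 or 10 in ΔZF1, 7 in E14 WT, 5 to 8 in Podxl pA and 7 or 8 in Grb10 pA over all alternatives run. In NPC Podxl pA it was 1 with only the groups compared (Igfbp5), against 0, and for the difference of the Grb10 pA effects it was 1 without ESC Grb10 pA replicate 2 and 0 without any other library. Where 1 library was left in a rescue group, it was assumed to vary like the other groups. The 2 NPC-WT libraries differed more than those of the other rescue groups (chi-square per degree of freedom 59.2), so that calls without 1 of them are not a test.

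No clear shared deviation was seen by replicate number: same-numbered libraries of different groups had deviations correlated at -0.14 to 0.13 (rescue) and at -0.21 to 0.15 (truncation). These correlations cannot show that the samples were unpaired. With the replicate block, the Irs2 difference of -0.96 had an adjusted p of 0.0592, and Irs1 from ESC to NPC Podxl pA stood at 1.32 (adjusted p = 0.0501), and no other call of these genes changed. Over 131 values of single genes, 1553 alternatives gave 1499 on the same side of the cutoffs, 26 that lost a call and 28 that gained one, and no called value changed sign. Values not called had another sign in 60.

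Counts over all genes moved by over 1.5 times as follows. ESC-ΔZF1, 601 genes, gave 1088 without the filter, 1601 with only the groups compared, 245 with the chromosome 11 median in the offsets and 8 to 21 with 1 library left out. NPC-ΔZF1, 2936 genes, gave 1222 with only the groups compared and 943 to 5870 with 1 library left out. The difference of the ΔZF1 effects, 449 genes, gave 696 with DESeq2, 1139 without the filter and 54 to 4673 with 1 library left out. ESC Podxl pA, 45 genes, gave 94 without the filter, 22 with only the groups compared and 12 to 38 with 1 library left out, and NPC Podxl pA, 73 genes, gave 133 with only the groups compared and 44 to 60 with 1 library left out. The difference of the Podxl pA effects, 13 genes, gave 40 with DESeq2, 108 without the filter, 56 with only the groups compared and 6 to 28 with 1 library left out, and that of the Grb10 pA effects, 783 genes, 506 to 943. The cause of these shifts was not tested.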

Other observations

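Means of the 10 groups on a log2 CPM scale were each centred on the mean over the groups of the same table, rescue or truncation. Over these values and among about 9328 other genes of sufficient level, the gene that correlated best with each of 9 genes was found as a description. The groups share lines and controls, and the tables were normalized separately. Pearson's r was 0.995 for Irs2 with Tmem63b, 0.994 for Igfbp5 with Jmjd1c, 0.993 for Igfbp3 with Pou3f1 and 0.985 for Insr with Greb1l. It was 0.984 for Igf1r with Agpat3, 0.982 for Grb7 with Tedc1, 0.978 for Grb14 with Hdgfl3, 0.971 for Irs1 with Plk3 and 0.970 for Igfbp2 with Ddit4.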
